A study of Mus musculus with 9 samples.

Results

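The genes of the MHC class II pathway were measured in FDCPmix cells, a line of mouse blood progenitors with several fates open to them, after knockdown (KD) of 1 of 2 transcription factors. All cells were kept in self-renewal conditions and transduced with lentivirus. The EV group carried the empty vector, the Gata2 KD group an shRNA, a hairpin that degrades the messenger it matches, against Gata2, and the Pu.1 KD group an shRNA against Pu.1, the gene that encodes PU.1 and is named Spi1 in gene tables. Viable GFP+ cells, those that expressed the fluorescent reporter of the vector, were sorted on day 5, and RNA from each of 3 samples per group was read on a single-color Agilent array. The model is thus 1 cell line with no second line beside it. The paper describes the transduction of triplicate samples and, for Gata2, a gene-specific shRNA. The labels do not say how many shRNA sequences were used per target or whether the triplicates were separate cultures. The p-values therefore measure the spread between these samples, which may be technical. The genes were listed by name (Cd74, Ciita, H2-Aa, H2-Ab1, H2-Eb1, H2-DMa, H2-DMb1, H2-DMb2, H2-Oa and H2-Ob), and every probe whose accession belongs to one of them was taken. Of the 10 genes, 9 had a probe, with 14 probes in all among the 41174 on the array. None was found for H2-Eb1 in this way, and a probe for it may be among those that could not be named. All 14 probes were among the 36585 that passed the filter on dim probes.

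MHC class II molecules are heterodimers of an alpha and a beta chain that carry peptides from endocytosed proteins to the cell surface, where CD4 T cells read them. Newly made dimers are held by the invariant chain, CD74, and are loaded with peptide in late endosomes by the H2-DM heterodimer, which H2-O restrains. Transcription of the whole set runs through CIITA, a coactivator without DNA binding of its own that docks on the factors bound to the X and Y boxes of class II promoters, and the pathway is best known from dendritic cells, macrophages and B cells.

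The promoter stretches of all 6 members that have both a probe and a RefSeq window are printed, since these H2 genes gave changes of very different size, and the letters show what the promoters share and where they differ. Each is the strand of the gene, 5' to 3', from 150 to 21 bases before the RefSeq start site on the build GRCm38.p6. Capitals mark the Y box letters GATTGG and the X box letters, searched with a general X box pattern (G, a pair of free bases, AC, a free base and GATG) and with a second, overlapping pattern that was chosen after the windows had been seen (the AAC and ATGATG letters with a pair of free bases between them).
H2-DMa, upstream window (chr17:34122682-34122811, plus strand): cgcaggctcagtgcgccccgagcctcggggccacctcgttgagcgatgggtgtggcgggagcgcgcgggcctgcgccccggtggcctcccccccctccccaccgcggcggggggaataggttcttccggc
H2-DMa, downstream window (chr17:34125368-34125497, plus strand): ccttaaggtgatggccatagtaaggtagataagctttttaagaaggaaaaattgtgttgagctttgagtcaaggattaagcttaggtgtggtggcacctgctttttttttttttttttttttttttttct
H2-Aa (chr17:34287844-34287973, minus strand): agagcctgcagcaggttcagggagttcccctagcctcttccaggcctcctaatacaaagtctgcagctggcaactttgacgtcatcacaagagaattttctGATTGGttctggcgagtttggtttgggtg
H2-DMb1 (chr17:34153041-34153170, plus strand): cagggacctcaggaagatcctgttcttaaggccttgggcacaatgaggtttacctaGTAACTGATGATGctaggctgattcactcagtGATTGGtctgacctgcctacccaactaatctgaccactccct
H2-DMb2 (chr17:34145099-34145228, plus strand): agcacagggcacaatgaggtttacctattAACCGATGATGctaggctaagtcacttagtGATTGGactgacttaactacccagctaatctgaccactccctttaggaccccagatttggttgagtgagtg
H2-Oa (chr17:34092229-34092358, plus strand): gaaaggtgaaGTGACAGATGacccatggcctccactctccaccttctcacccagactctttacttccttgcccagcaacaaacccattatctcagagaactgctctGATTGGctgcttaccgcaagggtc
H2-Ob (chr17:34238755-34238884, plus strand): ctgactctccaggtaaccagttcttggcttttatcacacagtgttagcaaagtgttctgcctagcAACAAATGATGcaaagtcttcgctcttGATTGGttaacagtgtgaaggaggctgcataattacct
RefSeq windows, from 250 bases before the start to 50 after it, were at hand for 7 of the 10 genes (8 windows, since H2-DMa has a pair), and none for H2-Ab1, Ciita or Cd74. Searched on both strands, the Y box letters stood in 7 of the 8 windows and in at least 1 window of all 7 genes, against 16.1% of the 32851 mouse promoters of the same length. The general X box pattern stood in 3 windows, those of H2-Oa, H2-DMb1 and H2-Eb1 (2.97% of promoters). The second X box pattern stood in 4, those of H2-DMb2, H2-DMb1, H2-Ob and H2-Eb1 (0.137% of promoters). The ETS-type letters GGAAGTG, as PU.1 binds them, were in none of the 8 windows (11.0% of promoters), and the GATA-type letters AGATAAG were in 1, of H2-DMa (3.04% of promoters). These are matches of letters and no measurement of binding. The ETS-type and GATA-type letters were searched as exact strings without free bases, so variants of them were not counted. No X box letters are marked in H2-Aa, whose stretch may hold a variant that both patterns miss. The general X box match of H2-Oa starts 140 bases before the start site and its Y box 44. In H2-DMb1 these lie at 94 and 62, so the H2-Oa match stands farther from its Y box. The H2-DMa stretches hold no Y or X box letters, and the Y box of its downstream window lies 199 bases before the start, outside the stretch printed. The stretches of the other 5 genes all hold the Y box letters.

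Each array had 80.4% to 89.6% of its spots well above background and none saturated. EV replicate 3 resembled the other arrays least (mean Pearson r of 0.96 with the others, against 0.971 to 0.978), and its part in the H2-DMb2 result is given there. Levels are log2 intensities minus that array's 75th percentile, so that 0 is a fairly bright probe, and levels of different probes are not set against each other. Gata2 itself was at 4.50, 5.04 and 4.86 in EV, at 3.61, 2.96 and 3.01 in Gata2 KD and at 4.53, 4.87 and 4.55 in Pu.1 KD. It fell by 1.61 on the log2 scale in Gata2 KD (adjusted p = 0.00414, limma) and its value in Pu.1 KD was -0.15 relative to EV (adjusted p = 0.964). Spi1 was at -1.66, -1.86 and -2.07 in EV, at -0.66, -0.36 and -0.39 in Gata2 KD and at -3.62, -3.64 and -3.52 in Pu.1 KD. It rose by 1.39 in Gata2 KD (adjusted p = 0.0012) and fell by 1.73 in Pu.1 KD (adjusted p = 0.00178), so both targets were lower in the cells that carried their shRNA.

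Knockdown of Gata2 was compared with EV, that is, cells with the Gata2 shRNA against cells with the empty vector. No group carried an shRNA without a target, so this comparison cannot separate loss of GATA2 from effects of carrying an shRNA. The paper reports myeloid differentiation after Gata2 knockdown in these conditions. Whether the changes reflect GATA2 in unchanged progenitors or a shift in cell state was not tested. Among the class II genes, the invariant chain and both chains of the I-A molecule rose most, the H2-DM chains H2-DMa and H2-DMb1 rose to a lesser degree, and the H2-O chains did not pass the test. Of the 9 genes, 6 rose (Cd74, Ciita, H2-Aa, H2-Ab1, H2-DMa and H2-DMb1) and none fell (0 lower also at an unadjusted p under 0.05), where 2.96% of all tested probes were called higher and 2.24% lower. The median change of the 9 genes was 2.06 on the log2 scale and that of all tested probes -0.09.

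Cd74, which encodes the invariant chain, was at -0.18, -0.46 and -0.06 in EV, at 4.77, 5.03 and 4.90 in Gata2 KD, and at -1.69, -1.34 and -1.21 in Pu.1 KD. The 3 groups did not overlap, with Gata2 KD far above EV and Pu.1 KD below it. Cd74 was 35.1-fold higher in Gata2 KD than in EV, a log2 change of 5.13 ± 0.18 (SE, adjusted p = 5.43e-06).

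H2-Aa, the alpha chain of I-A, was at -3.02, -3.19 and -2.59 in EV, at 0.92, 1.43 and 1.43 in Gata2 KD, and at -3.84, -4.47 and -4.50 in Pu.1 KD. All Gata2 KD arrays lay above all EV arrays, and all Pu.1 KD arrays below them. The rise in Gata2 KD was 18.3-fold (log2 change 4.20 ± 0.25, adjusted p = 4.51e-05). The other H2-Aa probe rose by 3.63 on the log2 scale (adjusted p = 9.30e-04).

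H2-Ab1, the beta chain of I-A, was at -0.02, -0.09 and 0.01 in EV, at 4.04, 4.17 and 4.08 in Gata2 KD, and at -1.23, -1.56 and -1.24 in Pu.1 KD. The SD within a group was 0.05, 0.07 and 0.19 in that order, and the groups did not overlap. The rise in Gata2 KD was 17.5-fold (log2 change 4.13 ± 0.14, adjusted p = 4.44e-06). The other H2-Ab1 probes rose by 3.99 and 3.78, so the 3 probes gave changes of like size.

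H2-DMa, the alpha chain of the peptide-loading heterodimer, was at 0.14, -0.13 and -0.10 in EV, at 2.09, 2.26 and 1.95 in Gata2 KD, and at -0.05, -0.04 and -0.11 in Pu.1 KD. Gata2 KD stood alone, and the Pu.1 KD arrays lay inside the range of EV. The rise in Gata2 KD was 4.39-fold (log2 change 2.13 ± 0.14, adjusted p = 6.70e-05).

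H2-DMb1, a beta chain of the same heterodimer, was at 1.57, 1.43 and 1.58 in EV, at 3.53, 3.68 and 3.54 in Gata2 KD, and at 0.69, 0.73 and 0.87 in Pu.1 KD. Here Pu.1 KD lay below EV on every array, unlike for H2-DMa. The rise in Gata2 KD was 4.16-fold (log2 change 2.06 ± 0.13, adjusted p = 4.74e-05), and the other H2-DMb1 probe rose by 2.14 (adjusted p = 3.05e-04).

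H2-DMb2, the other beta chain, was the dimmest member, well above background on 2 of 3 EV arrays, on 3 of 3 Gata2 KD arrays and on 2 of 3 Pu.1 KD arrays. It was at -4.98, -5.52 and -3.54 in EV, at -3.24, -2.66 and -2.70 in Gata2 KD, and at -5.54, -5.87 and -5.41 in Pu.1 KD. EV and Gata2 KD did not overlap, but EV replicate 3 lay close to the Gata2 KD arrays. The log2 change of 1.81 ± 0.45 did not pass the test (adjusted p = 0.066), and without EV replicate 3 it was 2.38 with an adjusted p of 0.00207. With normexp background correction it was 0.64 (adjusted p = 0.0599), and with the deposited log2 values 0.88 (adjusted p = 0.00221).

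Ciita, the coactivator of the set, was at -0.76, -1.49 and -0.87 in EV, at 0.27, 0.37 and 0.09 in Gata2 KD, and at -1.22, -1.64 and -1.40 in Pu.1 KD. Gata2 KD lay above both other groups, which overlapped each other. The rise over EV was 2.44-fold (log2 change 1.28 ± 0.22, adjusted p = 0.0106). It lost the call without Gata2 KD replicate 2, at an adjusted p of 0.059.

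H2-Oa and H2-Ob encode the heterodimer that restrains H2-DM. H2-Oa was at 2.62, 2.25 and 2.78 in EV, at 2.94, 3.11 and 2.71 in Gata2 KD, and at 1.82, 1.80 and 1.90 in Pu.1 KD. H2-Ob was at -2.68, -3.04 and -2.36 in EV, at -2.68, -2.50 and -2.29 in Gata2 KD, and at -3.69, -3.92 and -3.37 in Pu.1 KD. For both genes Gata2 KD overlapped EV, and every Pu.1 KD array lay below every EV array. The values in Gata2 KD relative to EV were 0.37 ± 0.18 for H2-Oa (adjusted p = 0.403) and 0.21 ± 0.22 for H2-Ob (adjusted p = 0.868). The second H2-Oa probe gave 0.40 (adjusted p = 0.258).

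**Figure D1:**
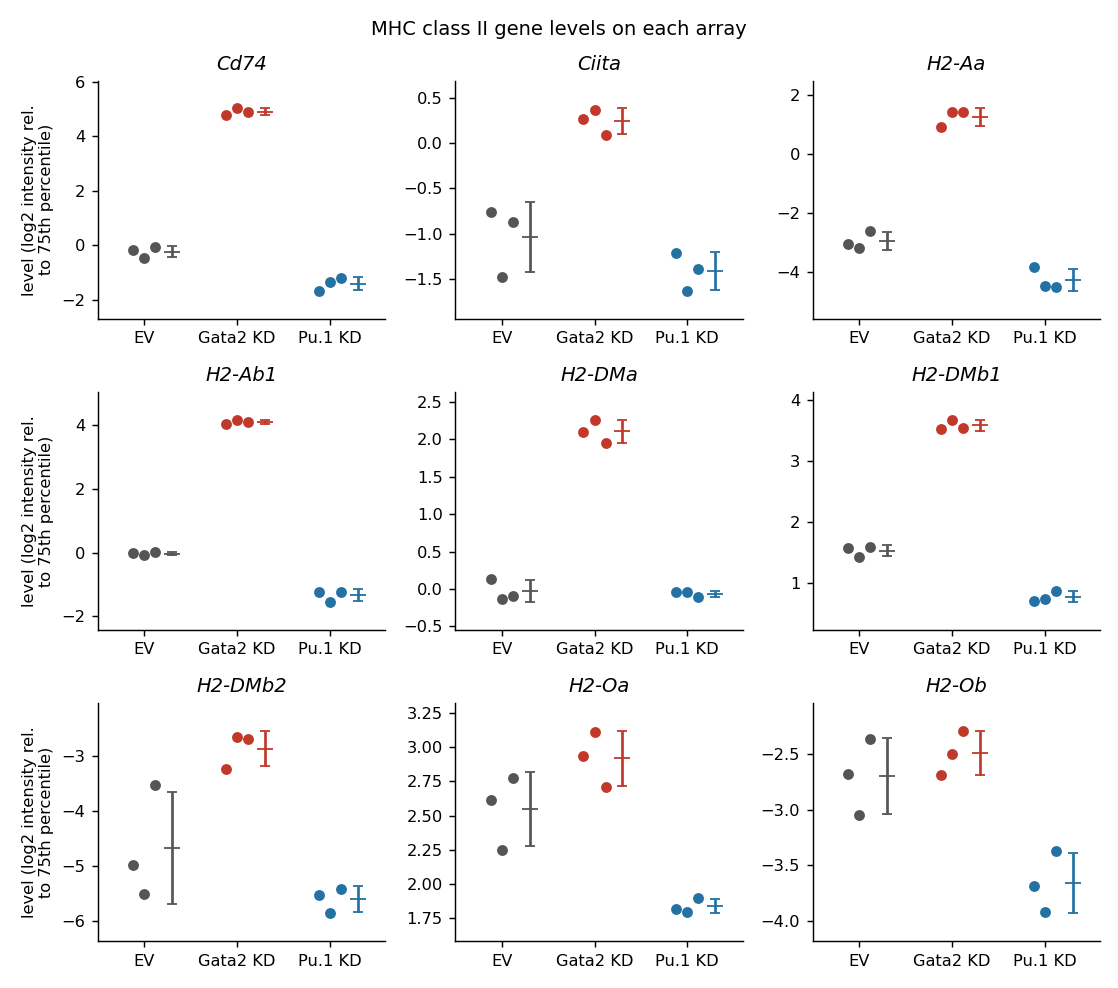
Level of each of the 9 MHC class II genes with a probe (log2 intensity minus that array's 75th percentile, own scale in each panel) on the 9 arrays by group; each point is 1 array and the bar beside the points is the mean with its SD (n = 3). Cd74, H2-Aa, H2-Ab1 and H2-DMb1 lie in 3 separate bands, and H2-DMa is high in Gata2 KD alone. H2-Oa and H2-Ob lie lowest in Pu.1 KD, where neither passed the test against EV, and their EV and Gata2 KD values overlap.

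The arrays lay on 3 slides, each with 1 array of every group. Within slides the change in Gata2 KD ran from 5.08 to 5.24 for Cd74, from 4.10 to 4.16 for H2-Ab1, from 0.85 to 1.76 for Ciita and from -0.13 to 0.39 for H2-Ob. The genes called higher were higher on all 3 slides. This had to be so, since their groups did not overlap, and it is no separate support. H2-DMb2 and H2-Oa, which did not pass the test, were also higher on all 3 slides, and H2-Ob on 2 of the 3.

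Knockdown of Pu.1 was compared with the same EV arrays, so the changes of both comparisons share their control values. Cd74, H2-Aa, H2-Ab1 and H2-DMb1 fell, by 2.26-fold, 2.52-fold, 2.48-fold and 1.70-fold. That is 4 of 9 genes lower and none higher, where 1.42% of all tested probes were called lower and 1.27% higher. The median change of the 9 genes was -0.93 and that of all tested probes -0.04.

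H2-Ab1 fell by 1.31 ± 0.14 on the log2 scale (adjusted p = 0.00318), and its other probes fell by 1.04 (adjusted p = 0.021) and 1.07 (adjusted p = 0.0426). Cd74 fell by 1.18 ± 0.18 (adjusted p = 0.0136). H2-Aa fell by 1.34 ± 0.25 (adjusted p = 0.0321), while its other probe, whose groups overlapped, gave -0.90 (adjusted p = 0.394). H2-DMb1 fell by 0.76 ± 0.13 (adjusted p = 0.0183), and its other probe gave -0.41 (adjusted p = 0.436) with groups that did not overlap. Within slides the difference lay between -1.47 and -1.22 for H2-Ab1, between -1.63 and -0.87 for Cd74, between -1.48 and -1.25 for H2-Aa and between -0.89 and -0.69 for H2-DMb1. Each of the 4 genes was lower on every slide, as it had to be where the groups did not overlap. Ciita, H2-DMb2, H2-Oa and H2-Ob, which did not pass the test, were also lower on every slide.

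H2-Ab1 kept its call whichever array was left out, and the other 3 genes did not. Cd74 lost its call without EV replicate 1 (adjusted p = 0.0533), Pu.1 KD replicate 1 (0.0602) or Pu.1 KD replicate 2 (0.0528). H2-Aa also lost it with normexp background correction, under which its change shrank to -0.55 (adjusted p = 0.137), and its change was -0.78 with the deposited log2 values. It lost it without EV replicate 1 (0.0874), 2 (0.062) or 3 (0.0864), without Gata2 KD replicate 2 (0.0662) or 3 (0.0611), and without Pu.1 KD replicate 2 (0.13) or 3 (0.133). H2-DMb1 lost it without EV replicate 1 (0.0686), 2 (0.0525) or 3 (0.051) and without Pu.1 KD replicate 1 (0.0962), 2 (0.0857) or 3 (0.0602). The count of genes called was 1 without EV replicate 1 or Pu.1 KD replicate 2, and 2 without EV replicate 2 or 3 or Pu.1 KD replicate 1 or 3.

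The remaining 5 genes did not pass the test. H2-Ob gave -0.96 ± 0.22 (adjusted p = 0.0677) and H2-Oa -0.71 ± 0.18 (adjusted p = 0.0881), both without overlap between the groups, and the second H2-Oa probe gave -0.67 (adjusted p = 0.068). H2-Ob passed with slide as a block (adjusted p = 0.0193), and its change shrank to -0.38 with normexp background correction (adjusted p = 0.229) and to -0.48 with the deposited log2 values (adjusted p = 0.0184). H2-DMb2 gave -0.93 ± 0.45 (adjusted p = 0.495) and Ciita -0.38 ± 0.22 (adjusted p = 0.62), both with overlap. H2-DMa gave -0.03 ± 0.14 (adjusted p = 1.0), close to the median of all tested probes, and between -0.24 and 0.10 within slides. This value turned to 0.05 without EV replicate 1 and to 0.0067 when arrays were scaled to their median.

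**Figure D2:**
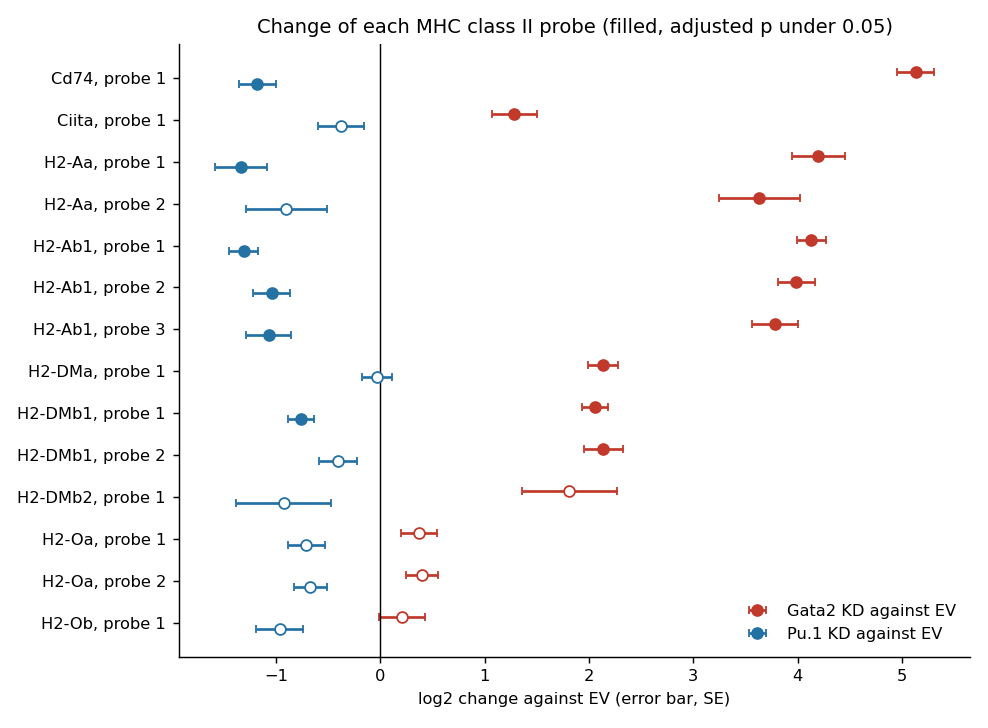
Log2 change of each of the 14 MHC class II probes in Gata2 KD and in Pu.1 KD against EV (points, with SE as the error bar; filled points had an adjusted p under 0.05). In Gata2 KD the probes of Cd74, H2-Aa and H2-Ab1 lie between 3.63 and 5.13 and those of H2-Oa and H2-Ob between 0.21 and 0.40; in Pu.1 KD all 14 lie between -1.34 and -0.03.

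Set directly against each other, Gata2 KD exceeded Pu.1 KD for all 9 genes, where 4.86% of all tested probes were called higher and 4.77% lower. The median difference was 2.74 on the log2 scale, beside -0.04 for all tested probes. Cd74 differed by 79.4-fold (adjusted p = 6.39e-07), H2-Aa by 46.2-fold (adjusted p = 5.27e-06) and H2-Ab1 by 43.5-fold (adjusted p = 6.35e-07). The H2-Aa difference fell to 3.97 on the log2 scale with normexp background correction, below that of H2-Ab1 (5.02), so the order of these genes is not settled. CD74 occupies the peptide groove of the dimer that the products of H2-Aa and H2-Ab1 form. H2-DMb1 differed by 7.06-fold (adjusted p = 4.86e-06), H2-DMb2 by 6.66-fold (adjusted p = 0.00592), H2-DMa by 4.49-fold (adjusted p = 3.13e-05) and Ciita by 3.16-fold (adjusted p = 0.00161). H2-Ob differed by 2.25-fold (adjusted p = 0.0114) and H2-Oa by 2.11-fold (adjusted p = 0.0053), which are the smallest values of the set here. With normexp background correction the log2 differences of H2-DMb2 and H2-Ob were 0.86 and 0.56, in place of 2.74 and 1.17, and both kept their call. Only the H2-Ob call was lost when an array was left out, at an adjusted p of 0.0527 without Gata2 KD replicate 3.

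Upstream of the class II promoters, 19 genes were listed, made up of the X and Y box factors, interferon regulatory factors, interferon-gamma signaling and CIITA regulators. In Gata2 KD 6 of the 19 rose and 2 fell, with a median of 0.06. Irf8, a myeloid interferon regulatory factor, was at -1.87, -1.59 and -1.63 in EV and at 2.74, 2.68 and 2.63 in Gata2 KD. It rose by 4.38 (adjusted p = 3.47e-06), and its value in Pu.1 KD was -0.42 (adjusted p = 0.179). Both chains of the interferon-gamma receptor rose, Ifngr2 by 1.44 (adjusted p = 0.00144) and Ifngr1 by 1.12 (adjusted p = 0.0034). Irf1, a transcription factor induced through that receptor, rose by 0.80 (adjusted p = 0.0115), though its second probe did not pass. Socs1, an inhibitor of the same signal, fell by 0.85, and Rfxap, a subunit of the X box complex, fell by 0.66. Without Gata2 KD replicate 2, 5 genes were called higher and 0 lower. In Pu.1 KD 2 of the 19 fell, Spi1 and Rfxap (by 1.17, adjusted p = 0.00308), none rose, and the median was 0.02. Genes named here and in what follows to complete a count were chosen after their values were seen.

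**Figure D3:**
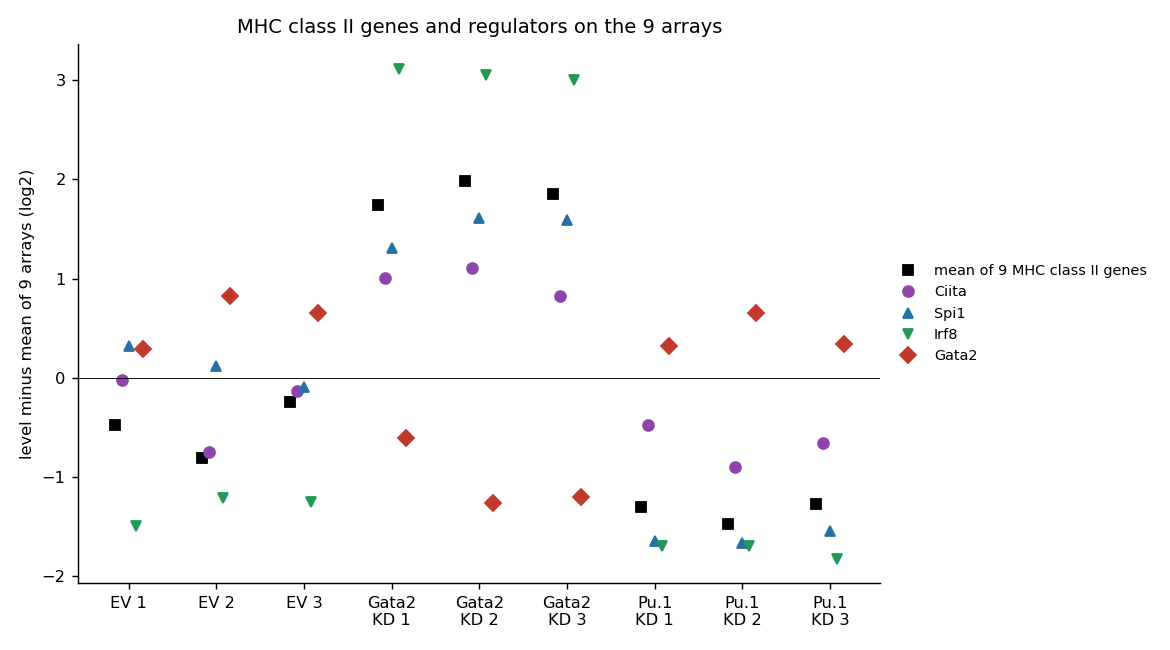
Level of each array minus the mean of the 9 arrays (log2) for the mean of the 9 MHC class II genes (squares), Ciita, Spi1, Irf8 and Gata2, with the 9 arrays along the horizontal axis. The class II mean lies between 1.74 and 1.99 on the Gata2 KD arrays, between -0.81 and -0.24 on the EV arrays and between -1.48 and -1.27 on the Pu.1 KD arrays.

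Downstream, 15 genes of endosomal processing were listed, the proteases and membrane proteins that trim the invariant chain, cut antigen or remove class II from the surface. In Gata2 KD 5 rose and 1 fell, with a median of 0.43. Ctss, the cathepsin that makes the last cuts in the invariant chain, was at -2.64, -2.98 and -2.07 in EV, at 3.72, 3.40 and 3.60 in Gata2 KD and at -2.51, -2.67 and -2.23 in Pu.1 KD. It rose by 6.13 in Gata2 KD (adjusted p = 7.49e-06), a larger value than that of any class II gene, while its value in Pu.1 KD was 0.09 (adjusted p = 1.0). Marchf1, a ubiquitin ligase that removes class II from the surface, rose by 4.56 (adjusted p = 1.51e-05). The cathepsins Ctsh and Ctsz rose by 4.08 and 1.72, and the cathepsin inhibitor Cst3 by 1.14. Marchf8, a relative of Marchf1, fell by 1.13 (adjusted p = 0.00159). In Pu.1 KD the protease Ctsl fell by 1.43 (adjusted p = 0.00844), none of the 15 rose, and the median was -0.01.

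For MHC class I, 9 of 12 listed genes were tested and none passed limma's test in Gata2 KD (median 0.22), where 2 had an unadjusted p under 0.05 and 2 were called with slide as a block. No probe was found for H2-K1, H2-D1 and Nlrc5, so the class I values do not cover these genes. In Pu.1 KD Psmb9, an immunoproteasome subunit, rose by 0.69 (adjusted p = 0.0443), and this call was lost without any 1 array other than EV replicate 2. Of 6 costimulatory genes tested, Icosl rose by 1.35 and Pdcd1lg2 fell by 1.20 in Gata2 KD, and none passed in Pu.1 KD, where 0 of the 6 had an unadjusted p under 0.05. The second Icosl probe gave -0.05 in Gata2 KD (adjusted p = 0.995). The class II locus gene H2-Eb2 gave -0.27 in Gata2 KD (adjusted p = 0.958) and -0.39 in Pu.1 KD (adjusted p = 0.947), and no probe was found for H2-Ea.

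Markers of cell types that could be present in the sorted culture were read on the same arrays. In a bulk sample, more cells of a type and more RNA per cell cannot be told apart. Of 8 macrophage and monocyte markers with a probe, 7 were tested and 6 rose in Gata2 KD, with a median of 2.71. Csf1r, the receptor for M-CSF, rose by 4.52 (adjusted p = 1.26e-05), Cd14 by 3.17, Ccr2 by 2.71, Adgre1 by 2.11 and Fcgr1 by 1.79. The other Csf1r probes gave 3.28 (adjusted p = 2.76e-05) and 0.53 (adjusted p = 0.513), and the second Adgre1 probe gave 1.29 (adjusted p = 0.234). Mrc1 was not well above background on any EV or Pu.1 KD array and was at least 6.86-fold higher in Gata2 KD, and the median of the list stays at 2.71 with that bound. The log2 of the summed level of these markers lay between 2.20 and 2.38 in EV. It lay between 4.87 and 5.05 in Gata2 KD and between 1.17 and 1.29 in Pu.1 KD. These sums, weighted to the bright markers, stood in the same order as the mean of the class II genes. Not every marker did, as Csf1r gave 0.25 in Pu.1 KD relative to EV (adjusted p = 0.812). In Pu.1 KD Fcgr1 fell by 3.03 and Adgre1 by 0.99, with 1 of the 7 genes called without Pu.1 KD replicate 1 or 2. The second Adgre1 probe gave -0.61 in Pu.1 KD (adjusted p = 0.803).

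Dendritic cell markers did not move together. Of 10, Batf3 rose by 1.82 and Clec10a fell by 1.22 in Gata2 KD, none passed in Pu.1 KD (1 at an unadjusted p under 0.05), and the log2 summed level was 4.38 to 4.61 in EV, 3.59 to 3.76 in Gata2 KD and 3.94 to 4.11 in Pu.1 KD. Clec10a made up 83.7% to 88.0% of that sum in EV and 64.8% to 71.5% in Gata2 KD, and without it the log2 sum was 1.56 to 1.76 in EV, 1.95 to 2.08 in Gata2 KD and 1.54 to 1.81 in Pu.1 KD. None of 8 B cell and 5 T cell markers passed in Gata2 KD (1 and 0 at an unadjusted p under 0.05), and in Pu.1 KD the B cell gene Cd79b fell by 1.65 and no T cell marker passed. The B cell sum overlapped between EV (0.66 to 1.36) and Gata2 KD (0.98 to 1.27) and the T cell sum likewise (1.37 to 1.85 and 1.29 to 1.67), and in Pu.1 KD they were 0.32 to 0.93 and 1.58 to 1.85. Of 8 mast cell markers, Fcer1a (by 2.96), Cpa3 (by 2.49), Cma1 (by 1.23) and Hdc (by 0.98) fell and Kit rose by 0.75 in Gata2 KD. In Pu.1 KD Cma1 rose by 1.49 and Kit by 1.41, while Hdc fell by 1.02 and Fcer1a by 0.70. The second Cma1 probe gave 1.35 in Pu.1 KD (adjusted p = 0.078). With 1 array left out, between 3 and 5 of the 8 were called in Gata2 KD and between 1 and 3 in Pu.1 KD. The log2 summed mast cell level was 6.68 to 6.92 in EV, 4.40 to 4.53 in Gata2 KD and 6.05 to 6.24 in Pu.1 KD. No marker of these 5 lists was below background on all 9 arrays, and the part that any of these cell types has in the class II values was not tested.

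**Figure D4:**
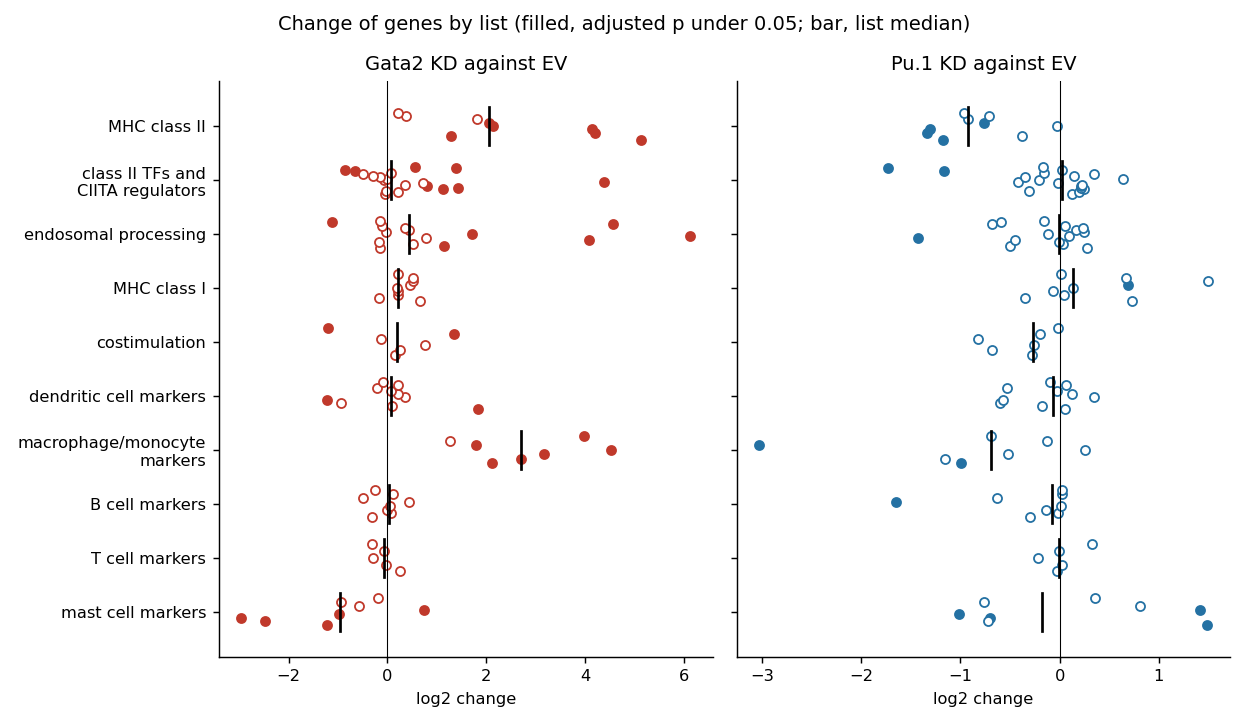
Log2 change of single genes in each list, in Gata2 KD and in Pu.1 KD against EV (1 point per tested gene, filled where the adjusted p was under 0.05; the vertical bar is the median of the list). The class II genes (median 2.06) and the macrophage and monocyte markers (median 2.71) lie to the right in Gata2 KD, whereas the medians of the MHC class I, dendritic, B and T cell lists lie between -0.07 and 0.22. H2-K1, H2-D1 and Nlrc5 had no probe and are not among the MHC class I points.

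Among the genes whose pattern over the 9 arrays was most like the mean of the class II genes were Ms4a6c, Ccl2, Pram1 and Mgl2, with a Pearson r between 0.997 and 0.998. The mean is made of the 9 members and weighted to those with large changes, so each is set against a mean that contains it. Among them, r with that mean was lowest for H2-Ob (0.776), H2-Oa (0.875) and H2-DMb2 (0.945) and lay between 0.962 and 0.997 for the others. It was 0.935 for Spi1 and -0.912 for Gata2. These values describe 9 arrays that fall into 3 groups, and arrays of a group share its treatment. Ccl2, a monocyte chemokine, had a mean of -1.35 in EV, 1.33 in Gata2 KD and -2.36 in Pu.1 KD. Mgl2, a C-type lectin, had means of -1.67, 0.77 and -2.46 in the same groups.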

How the data were processed

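Cy3-labeled cRNA from 150 ng of total RNA per sample was hybridized to 9 Agilent 4x44K arrays. The authors deposited scanner intensity values from Agilent Feature Extraction 10.1.1.1, background-subtracted within each array but not normalized between arrays, and a table of log2 values whose normalization is not given in the sources used here. Log2 processed signals were averaged over the spots of a probe, outlier-flagged spots were left out, and the 75th percentile of the array was subtracted. Probes well above background on at least 3 of 9 arrays, with at least 2 values per group, were tested with limma 3.58.1 in R 4.3.3 (lmFit over all 9 arrays, eBayes), two-sided, with Benjamini-Hochberg adjustment over 36585 probes and a threshold of 0.05. The scripts were tested on simulated data. Accessions were matched to RefSeq genes (GRCm38.p6), which named 23366 of 41174 probes. The probe with the highest mean level stood for a gene. The members, the lists and the naming rule (all members, both targets, up to 4 called genes with the largest changes per list, and the 5 genes most like the class II mean) were chosen with earlier results of these data known, and some genes that the rule names are not reported here. The lists were written from general knowledge. Normexp, an alternative, used the median signal, as the files have no mean signal. Same-numbered arrays were not treated as pairs, since their deviations from the group means correlated between -0.55 and 0.65. Deviations of arrays on the same slide correlated between 0.26 and 0.72 in 8 of 9 pairs and at -0.04 in the other. The main fit holds no term for the slide, and the slide as a block was an alternative. The precision is limited by 3 arrays per group.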

Additional observations from a re-analysis of the deposited data

How the results depend on the processing

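Of 564 changes of the 9 class II genes, over the 3 comparisons and up to 21 alternatives, 521 kept their direction and their side of the threshold, 28 lost the call, 13 gained one and 2 changed sign. The sign changes were those of H2-DMa in Pu.1 KD, 0.0067 with scaling to the median and 0.053 without EV replicate 1, with a range from -0.082 to 0.053 over the arrays left out. The number of class II genes called ranged from 5 to 7 in Gata2 KD and from 8 to 9 for Gata2 KD against Pu.1 KD. In Pu.1 KD it was 4, but 1 with only the groups compared in the fit, 2 with the mean of the tested probes of a gene, and between 1 and 4 with 1 array left out. With the replicate number as a block it was 1, but the numbers are not borne out as a pairing, and with the slide as a block it was 5. It was also 5 with quantile normalization, with the deposited log2 values and with trend and robust settings in eBayes. The fit on probes well above background on all 9 arrays gave 5 as well. The replicate block left 6 genes called in Gata2 KD and 9 for Gata2 KD against Pu.1 KD, and moved the 19 regulators called in Gata2 KD from 8 to 4. H2-DMb2 in Gata2 KD passed under 6 of 20 alternatives, with adjusted p from 0.00118 to 0.24 and changes from 0.64 to 2.38 over all of them, and at 0.0267 with the slide as a block. The fall of Spi1 in Pu.1 KD was -1.0 with normexp. H2-Ob in Pu.1 KD passed under 5, with adjusted p from 0.011 to 0.231 over all alternatives, and H2-Oa under 2, from 0.0213 to 0.285. H2-Ab1 kept its fall in Pu.1 KD under all 21, with adjusted p up to 0.0359. H2-DMb2 drops out of the fit on probes well above background on all 9 arrays. Calls over all tested probes moved by more than 1.5 times in some fits. In Pu.1 KD the main fit called 465 higher and 521 lower. These counts were 101 and 133 with the replicate block, 97 and 126 with only the groups compared, and 188 and 189 with scaling to the median. With the slide as a block they were 874 and 1001.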
